A study of Homo sapiens with 2 samples.

Results

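The genes described here are 7 whose splicing, or for ATG7 the polyadenylation site, is reported to change in blood cells carrying mutant U2AF1. Described with these are 3 genes annotated across them on the other strand. The 7 are H2AFY, STRAP, KMT2D, PICALM, GNAS, ATG7 and IRAK4, and the overlapping genes are C5orf66, GNAS-AS1 and VGLL4. They were picked by symbol, and all 10 were matched by Ensembl identifier among the 58302 genes of the count table. The libraries came from HEL, an established human erythroleukemia line, without treatment, after ultraviolet crosslinking and immunoprecipitation of U2AF2 (eCLIP, which recovers and sequences the RNA fragments bound to a protein). They form 1 group of 2 biological replicates that differ in no stated condition. Libraries of U2AF1-mutant cells and input libraries were not analysed here, so no value is a mutant effect or an enrichment over input. The labels enter U2AF2 in the field for the cell line and name HEL as the source.

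U2AF2 and U2AF1 form the heterodimer U2AF, which marks the end of an intron for the spliceosome. U2AF2 binds the pyrimidine-rich tract, and U2AF1 contacts the AG at the intron's last bases and the base before it. Mutant U2AF1, found in myelodysplastic syndromes and acute myeloid leukemia, is reported to shift the use of individual 3' splice sites according to that neighbouring base.

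Annotated 3' splice sites are shown first. Those of H2AFY carry the comparison with C5orf66, that of GNAS belongs to the exon that sets its long form apart, and those of STRAP and IRAK4 come from genes that held almost no counts. H2AFY, also named MACROH2A1, encodes the histone variant macroH2A1. Its coding transcripts can include either of a pair of mutually exclusive exons that give the isoforms macroH2A1.2 (the 100-base exon) and macroH2A1.1 (the 91-base exon). GNAS encodes the stimulatory G protein alpha subunit, whose long and short forms differ by a 45-base exon. Each line gives 20 bases of intron and 3 of exon, 5′ to 3′ on the gene's own strand (GRCh38). Capitals mark the last 3 bases of the intron.
H2AFY 100-base exon, chr5:135353043-135353065, minus strand: cctcatgcttttctttgCAGctg
H2AFY 91-base exon, chr5:135350911-135350933, minus strand: catttgtttacctgttaTAGttg
H2AFY 175-base exon, chr5:135343432-135343454, minus strand: tttcatccccgcaccacTAGctg
GNAS 45-base exon, chr20:58898921-58898943, plus strand: tttcaatctctctttaaAAGggg
STRAP 66-base exon, chr12:15900927-15900949, plus strand: cattgcttttctttttaCAGaag
IRAK4 65-base exon, chr12:43773945-43773967, plus strand: tgtatattttattttttCAGatg
Of the 20 intron bases, pyrimidines made up 15 at the H2AFY 100-base exon, 13 at the 91-base exon and 14 at the 175-base exon. They made up 13 at the GNAS exon, 15 at the STRAP exon and 14 at the IRAK4 exon. The 91-base and 175-base exons of H2AFY have T before the AG, while the 100-base exon has C. In the annotation, the 100-base exon's site was used by 3 of the 9 H2AFY transcripts spanning it. The 91-base exon's site was used by 2 of 11, of which 1 is a retained-intron transcript with a 100-base exon there. The 45-base GNAS exon's site was used by 26 of 49. These letters could be read only where a transcript of either strand covers the site, which held for 40 of the 202 annotated sites of the 10 genes (19.8%), so shares of bases over all sites are not given.

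The gene counts summed to 995428 in replicate 1 and 1350116 in replicate 2, which were 2.66% and 2.60% of the uniquely mapped reads. Of those reads, 97.3% and 97.4% were tallied as lying on no feature. Another 17816 reads in replicate 1 and 23938 in replicate 2 were tallied as ambiguous, and how many of these fall at the 10 genes is not shown. A total of 3 counts, the one-sided limit that a count of 0 allows (3.69 counts as the upper end of the two-sided exact interval), corresponds to 2.98 CPM (counts per 1000000 scaled counts) in replicate 1 and 2.25 CPM in replicate 2. Of 10 erythroid and megakaryocyte marker genes, 2 reached 10 counts in both replicates (GP1BA and TAL1), against 0 of 6 markers of other blood cells and 24.8% of all protein-coding genes. GP1BA and TAL1 have an opposite-strand gene over their exons, and the other 8 erythroid and megakaryocyte markers have none. PF4 held 0 counts, and the summed level of the 10 markers was 355 CPM and 375 CPM in the replicates, mostly from GP1BA, with 312 and 413 counts. No source used here states on which strand the reads were counted. For each gene with an opposite-strand neighbour it is therefore uncertain which of the overlapping genes its reads came from.

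C5orf66, annotated as an antisense RNA, held 3291 counts in replicate 1 and 4199 in replicate 2. ATG7, the E1-like enzyme of autophagy, held 188 and 281, and GNAS held 136 and 198. VGLL4, a TEAD cofactor of the Hippo pathway, held 47 and 51, and H2AFY held 45 and 52. The remaining members were near 0 in both libraries. KMT2D, a histone H3 lysine 4 methyltransferase, held 6 and 4 counts. PICALM, a clathrin assembly protein, held 2 and 8. GNAS-AS1, an imprinted antisense RNA, held 1 and 3. IRAK4, a kinase of Toll-like receptor signalling, held 1 and 2, and STRAP, a WD-repeat protein of the SMN complex, held 1 and 0. C5orf66 alone held 88.0% of the 8516 counts of the 10 genes (88.5% in replicate 1 and 87.5% in replicate 2).

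**Figure D1:**
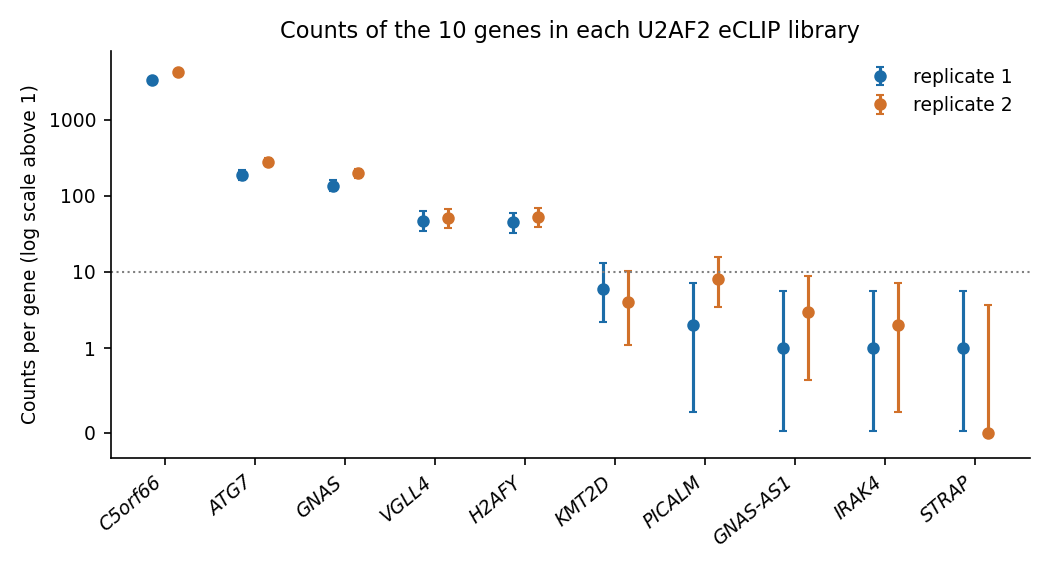
Counts of the 10 genes (vertical axis, logarithmic above 1) in replicate 1 (blue) and replicate 2 (orange), with exact 95% Poisson intervals for counting error and a dotted line at 10 counts. C5orf66 sits at 3291 and 4199, ATG7, GNAS, VGLL4 and H2AFY between 45 and 281, and the other 5 genes at 8 or fewer.

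Per kb of merged exons and scaled for library size, C5orf66 was at 482 ± 12.2 CPM per kb (SD, n = 2), ATG7 at 22.5 ± 1.95, GNAS at 10.6 ± 0.723, VGLL4 at 5.86 ± 0.817 and H2AFY at 2.36 ± 0.225. Among these 5, no gene's pair of values overlapped that of the next in order. PICALM followed at 0.684 ± 0.487 CPM per kb and GNAS-AS1 at 0.443 ± 0.243. STRAP stood at 0.224 ± 0.317, IRAK4 at 0.221 ± 0.0639 and KMT2D at 0.219 ± 0.102. From PICALM down, each gene's values overlapped those of the next, so the order of these 5 is not resolved at this depth.

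A minimum of 10 counts in both replicates was reached by 5 of the 10 genes, against 15.4% of all genes in the table, 24.8% of protein-coding genes and 37.6% of antisense RNAs. The median level was 23.1 CPM over the 10 genes, 0.375 CPM over all genes and 1.86 CPM over protein-coding genes. Over the 7 genes with reported changes, without the 3 overlapping genes, it was 4.48 CPM. The median of the members lay between a high and a low set. Of the 7 genes with reported changes, 3 of the 4 that share exon bases with an opposite-strand gene reached 10 counts in each library. Of the 3 without one, 0 did. Their median levels were 91.8 CPM and 1.25 CPM, beside 7.97 CPM and 1.13 CPM over all protein-coding genes with and without such a gene. Among all protein-coding genes, 46.0% of the 6688 with an opposite-strand gene over their exons reached this minimum and 14.1% of the 13129 without one. The 3 overlapping genes were chosen for their position, so their overlap is not a result.

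C5orf66 (chromosome 5, 135033280 to 135358219, plus strand, GRCh38) ranked 9th of all genes in the table and exceeded 99.9% of antisense RNAs, at 3207 ± 81.0 CPM (SD, n = 2). H2AFY (chromosome 5, 135333900 to 135399914, minus strand), at 41.8 ± 3.98 CPM, exceeded 88.3% of protein-coding genes. C5orf66 held 77.2 times the counts of H2AFY, 73.1 times in replicate 1 and 80.8 times in replicate 2. Per kb of merged exons the ratio was 206.

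The exons of C5orf66 lie largely on H2AFY. Of its 6650 merged exon bases, 4968 are shared with annotated H2AFY exons, counting the exons of every H2AFY transcript, including retained introns. Its exon from 135355049 to 135358219, of 3171 bases, lies wholly within an annotated H2AFY exon. Its exon from 135350696 to 135350922 holds the site of the 91-base exon printed above with 9 of the 20 bases upstream of it. Its exon from 135343155 to 135344685 holds the site of the 175-base exon with all 20 bases upstream and 1251 bases of upstream sequence in all. The site of the 100-base exon lies outside the exons of C5orf66. Gene counts do not show where within the exons of C5orf66 its reads lay.

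**Figure D2:**
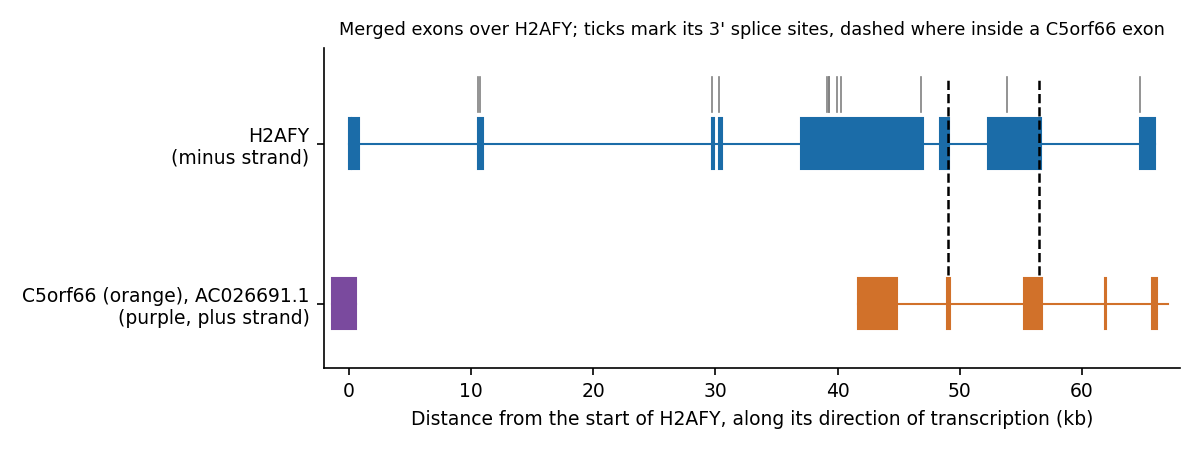
Map of merged exons (boxes) of H2AFY and of the plus-strand genes C5orf66 (orange) and AC026691.1 (purple) over it, with distance in kb from the start of H2AFY along its direction of transcription. Ticks mark the 14 annotated 3' splice sites of H2AFY, and the 2 dashed lines are those inside an exon of C5orf66.

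AC026691.1, an antisense RNA at the other end of the locus (chromosome 5, 135399280 to 135401296, plus strand), shares 509 exon bases with the start of H2AFY and contains none of its 3' splice sites. It held 145 and 167 counts, or 135 ± 13.1 CPM (SD, n = 2), so both plus-strand genes over the exons of H2AFY held more counts than H2AFY itself. H2AFY had 1.29% of the counts of these 3 genes in replicate 1 (exact 95% binomial interval 0.944 to 1.73) and 1.18% in replicate 2 (0.880 to 1.54). PITX1, a homeobox transcription factor gene whose span overlaps the start of C5orf66 on the other strand with no shared exon base, held 24 and 26 counts. Within the span of C5orf66 but outside its exons, the long non-coding RNAs C5orf66-AS1 and C5orf66-AS2 held 11 and 11 and 14 and 16. AC008406.1 held 4 and 5 counts, AC008406.3 held 1 and 8, and AC008406.2 held 0 in both libraries.

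The genes nearest to C5orf66 in level over both libraries, by distance in log2 CPM, were the antisense RNAs AC009133.1, AC006064.2 and AC003681.1. AC009133.1 held 3340 and 4309 counts and lies over the exons of MAZ and PAGR1 among others. AC006064.2 held 3070 and 4234 counts and lies over CHD4, and AC003681.1 held 3064 and 4140 counts and lies over MTMR3. All 3 are of the antisense class, which is annotated by its position opposite another gene. The likeness rests on 2 values per gene.

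At KMT2D (chromosome 12, 49018975 to 49059774, minus strand) the order was the same. KMT2D held 10 counts over both libraries across 20485 merged exon bases and 57 annotated 3' splice sites, the most of any member. DDN-AS1, an antisense RNA that shares 261 exon bases with the end of KMT2D, held 118 and 144 counts, at 113 ± 6.38 CPM (SD, n = 2). KMT2D had 4.84% of the counts of the pair in replicate 1 (exact 95% binomial interval 1.80 to 10.2) and 2.703% in replicate 2 (0.741 to 6.78). DDN-AS1 also lies over exons of DDN and PRKAG1, so its counts need not belong to the part shared with KMT2D.

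ATG7 (chromosome 3, 11272309 to 11557665, plus strand) and VGLL4 (chromosome 3, 11556070 to 11771350, minus strand) meet at their 3' ends and share 1596 exon bases, with no 3' splice site of either gene inside the exons of the other. ATG7 was at 199 ± 17.2 CPM (SD, n = 2), above 97.2% of protein-coding genes, and VGLL4 at 42.4 ± 5.91 CPM, above 88.4%. ATG7 held 80% of the counts of the pair in replicate 1 (exact 95% binomial interval 74.3 to 84.9) and 84.6% in replicate 2 (80.3 to 88.3). Reports on mutant U2AF1 describe a switch of polyadenylation site in ATG7, at the end that meets VGLL4. The counts do not show how much of either gene's reads lay in the shared part. The antisense RNA AC022001.2 shares 119 exon bases with VGLL4 and held 8 and 10 counts. AC022001.3, within an intron of VGLL4, held 22 and 28. The genes nearest to ATG7 in level were NDUFB10, a respiratory complex I subunit with 185 and 280 counts, MRPS22, a mitochondrial ribosomal protein gene with 190 and 285, and the pseudogene HLA-J with 188 and 274. Within the introns of ATG7, the pseudogenes AC083855.1, AC026185.1 and AC022001.1 held 1 and 8, 1 and 0, and 1 and 5 counts.

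At GNAS (chromosome 20, 58839718 to 58911192, plus strand) most counts of the pair were assigned to the sense gene. GNAS was at 142 ± 9.64 CPM (SD, n = 2), above 95.8% of protein-coding genes, and GNAS-AS1 (chromosome 20, 58818919 to 58850903, minus strand) at 1.62 ± 0.890 CPM, above 43.0% of antisense RNAs. GNAS held 98.8% of the counts of the pair over both libraries (exact 95% binomial interval 97.0 to 99.7). Shared exon bases are 1127, of 13320 merged exon bases in GNAS and 3657 in GNAS-AS1, so most of the sequence compared does not overlap. The counts do not show how much of either gene's reads lay in the shared part. AL121917.1, which shares 36 exon bases with GNAS on the minus strand, and AL121917.2, within a GNAS intron, held 0 counts in both libraries, as did AL132655.1 within GNAS-AS1, which allows up to the 2.98 and 2.25 CPM given above.

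The exons of GNAS-AS1 also lie opposite 4 short plus-strand RNA entries named after Rfam families, which share no exon base with GNAS. RF02127 held 30 and 41 counts, RF02128 held 42 and 70, RF02130 held 12 and 13 and RF02131 held 31 and 39. Together they held 278 counts on 449 bases shared with GNAS-AS1, against 4 counts on the 3657 exon bases of GNAS-AS1. Relative to exon length they held 223 to 982 counts per kb over the replicates together, a range below the 1126 of C5orf66 and above the 53.1 of ATG7. A read longer than such an entry can be counted to it from its flanks, so a density over about 100 bases is not on the same footing as one over a long gene. RF02128 had the highest density. Its sequence is shown because 113 of its 114 bases coincide with an exon of GNAS-AS1 on the other strand. The 1 base outside the exon, in capitals, is the last base of the intron before it. The rest of that intron, with any pyrimidine-rich tract, lies outside the entry.
RF02128, chr20:58842433-58842546, plus strand: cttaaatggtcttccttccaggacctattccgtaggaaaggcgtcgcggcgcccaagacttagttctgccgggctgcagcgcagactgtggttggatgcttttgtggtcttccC

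**Figure D3:**
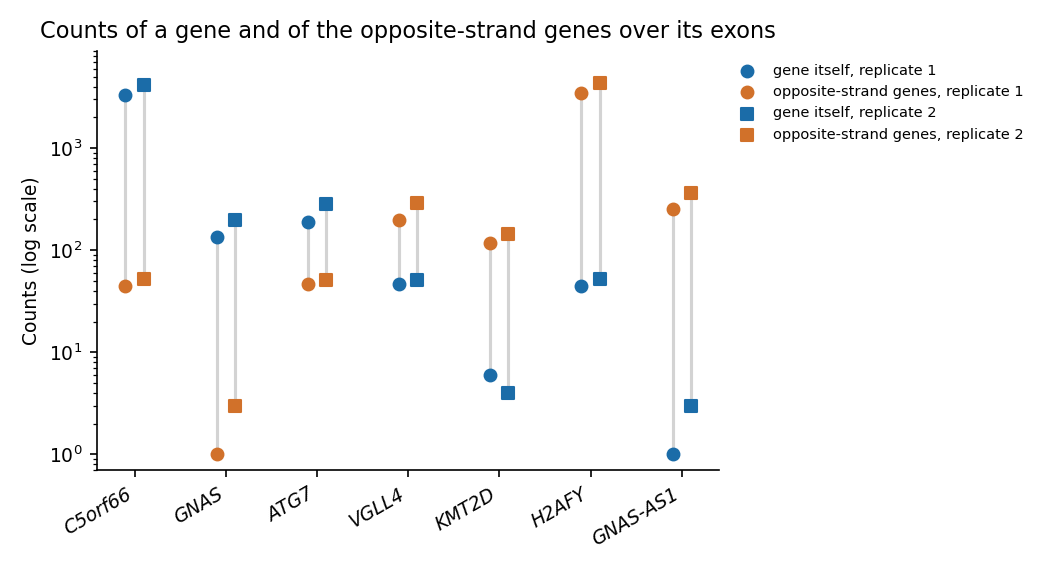
Counts (logarithmic axis) of the 7 genes with an opposite-strand gene over their exons (blue) and the summed counts of those opposite-strand genes (orange), with circles for replicate 1 and squares for replicate 2. H2AFY, KMT2D, VGLL4 and GNAS-AS1 lie below their partners in both libraries, and C5orf66, GNAS and ATG7 lie above them.

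Of the 5 protein-coding members with an opposite-strand gene over their exons, H2AFY, KMT2D and VGLL4 held fewer counts than those genes summed, and GNAS and ATG7 held more. Among all 6688 protein-coding genes with such a partner, the partners held more in 56.6%, and in 63.1% of those with at least 20 counts in gene and partners, so the split among the members is near that background. Each gene's order was the same in both replicates.

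STRAP (chromosome 12, 15882391 to 15903478, plus strand), PICALM (chromosome 11, 85957684 to 86069882, minus strand) and IRAK4 (chromosome 12, 43758944 to 43789543, plus strand) have no other annotated gene over their spans. STRAP had 10 annotated 3' splice sites, PICALM 26 and IRAK4 15, including the pyrimidine-rich sites printed above for STRAP and IRAK4. STRAP was at 0.496 ± 0.701 CPM, IRAK4 at 1.25 ± 0.359 CPM and PICALM at 3.99 ± 2.84 CPM (SD, n = 2), above 26.9%, 41.1% and 63.3% of protein-coding genes. Among the protein-coding genes with no opposite-strand gene over their exons the median was 1.13 CPM. With a strand setting that is not given, these values do not measure U2AF2 binding to the RNAs of these genes.

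The position of 3' splice sites inside the exons of a gene on the other strand, as for H2AFY and C5orf66, was then set against counts over all genes with a model. A site was placed by the first base of its exon, so the intron bases that U2AF binds may lie outside. Genes with no exon base inside the span of an opposite-strand gene (35700 genes) reached the minimum of 10 counts in both replicates in 5.17% of cases. Genes with exon bases inside such a span but none of that gene's 3' splice sites inside them (16987 genes) did so in 26.4%. The share was 43.3% with 1 site (3688 genes), 57.6% with 2 sites (951 genes) and 66.5% with 3 or more (713 genes), and the median count over both libraries was 4 without a site and 13, 46 and 153 in these classes. C5orf66, with 2 sites, held 7490 counts, above the 735 that 90% of the genes in its class do not exceed. H2AFY contains 1 site of C5orf66 and VGLL4 1 of AC022001.2, while GNAS and ATG7 contain none and still passed the minimum. AC026691.1 contains none and held 312 counts. Genes with more sites also have more exonic bases, and the median counts per kb of exon were 2.34 without a site and 4.37, 12.4 and 27.2 with 1, 2 and 3 or more. All gene types are pooled in these classes. Of protein-coding genes that share no exon base with an opposite-strand gene, 14.1% reached the minimum. Their exons may still lie inside the span of such a gene, so 5.17% and 14.1% differ in more than gene type. These are descriptions across genes, which are not independent. The parts played by the mix of gene types and by the expression of the opposite gene were not tested.

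**Figure D4:**
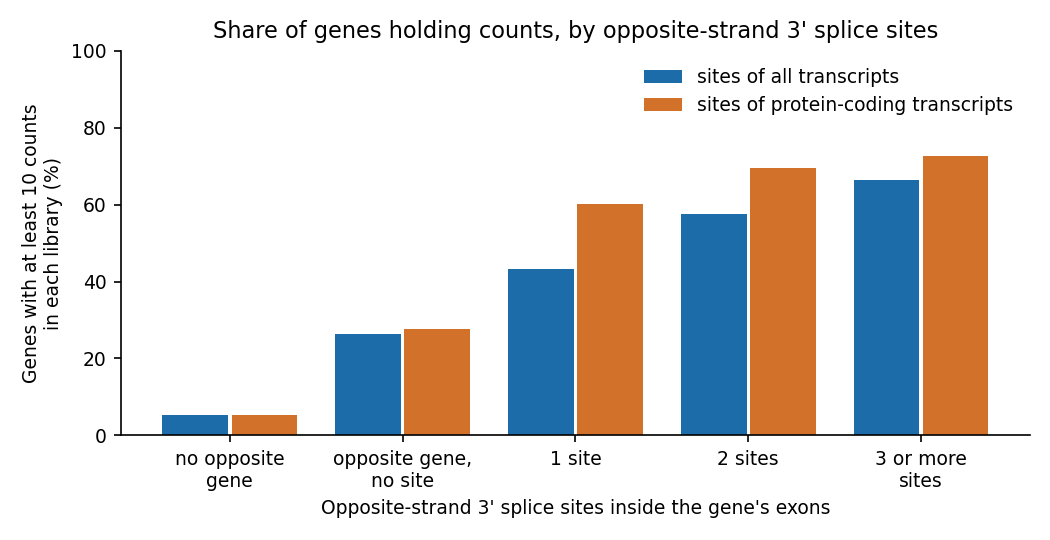
Share of genes that reached 10 counts in both replicates (vertical axis, %) by the number of opposite-strand 3' splice sites inside their exons, from sites of all transcripts (blue) or of protein-coding transcripts (orange). The shares from all transcripts run from 5.17% with no exon base inside the span of an opposite-strand gene to 66.5% with 3 or more sites.

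The replicates were compared for the members that held enough counts. Scaled for library size, the ratio of replicate 2 to replicate 1 was 0.965 for C5orf66 (exact 95% interval 0.922 to 1.01), 1.13 for ATG7 (0.936 to 1.37), 1.10 for GNAS (0.881 to 1.38), 0.821 for VGLL4 (0.541 to 1.25) and 0.874 for H2AFY (0.575 to 1.33). The exact binomial test with Benjamini-Hochberg adjustment over 8983 genes called 0 of these 5 genes, against 0.501% of the genes tested. Their adjusted p values in that exact test ran from 0.756 for C5orf66 to 0.978 for H2AFY. In the same test 0 of the 5 had an unadjusted p below 0.05, against 769 of the 8983 genes tested. With raw library totals in place of scaled ones, 1 of the 5 had an unadjusted p below 0.05 and 0 were called. The test covers counting error between 2 libraries of 1 group.

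Other genes of the members' pathways, from lists written with earlier results of these data known, were read against all protein-coding genes. Over 10 lists and 95 genes, the median was 3.98 CPM against 1.86 CPM for all protein-coding genes, and 26 genes (27.4%) reached 10 counts in each library, close to the 24.8% of all protein-coding genes. They were 18 of the 38 genes with an opposite-strand gene over their exons (47.4%) and 8 of the 57 without one (14%). These shares are close to the 46.0% and 14.1% of all protein-coding genes with and without such a gene. The exact binomial test called 0 of these 26 between the replicates, against 0.501% of all genes tested. It gave 1 of the 26 an unadjusted p below 0.05, against 769 of the 8983 genes tested.

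Among 7 further genes with splicing changes reported for mutant U2AF1, FANCA and CTNNB1 reached the minimum. FANCA, a Fanconi anemia repair gene that lies opposite ZNF276, held 1856 and 2513 counts, or 1863 ± 31.2 CPM (SD, n = 2). CTNNB1, the beta-catenin gene, held 24 and 28 counts with no opposite-strand gene, CASP8 15 and 9, and CHCHD7, the lowest, 0 and 1. None of the 5 other H2A variant genes reached the minimum, with H2AFX highest at 7 and 15 and H2AFJ lowest at 2 and 2, and H2AFY2, which encodes macroH2A2, held 5 and 8.

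Of 7 partners of STRAP in the SMN complex, which assembles snRNPs, 0 reached the minimum, against the 24.8% of protein-coding genes, while their median of 4.36 CPM lay above the 1.86 CPM of those genes. They ran from GEMIN4 with 8 and 17 counts to GEMIN8 with 0 and 0. Of 10 COMPASS genes, which act with KMT2D, 3 passed, led by PAXIP1 with 119 and 194 counts, and RBBP5 was lowest with 1 and 1. Of 11 clathrin endocytosis genes, 5 passed, from the clathrin heavy chain gene CLTC with 119 and 131 counts to AP2S1 with 0. Of 12 G protein signalling genes, 7 passed, and 4 of these 7 have an opposite-strand gene over their exons. This was the largest share among the 10 short lists, beside 27.4% over all lists and 24.8% of protein-coding genes. Of protein-coding genes with and without an opposite-strand gene over their exons, 46.0% and 14.1% passed. The G protein list was led by the G protein alpha subunit gene GNAL with 155 and 175 counts, and GNAQ was lowest by CPM with 3 and 0. Of 11 autophagy genes, 4 passed, from ATG10, an E2-like enzyme, with 351 and 501 counts to ATG16L1 with 0 and 1.

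Of 9 Hippo pathway genes that work with TEAD factors, 2 passed, led by TEAD3 with 27 and 40 counts, and YAP1 held 0. Of 11 Toll-like receptor signalling genes only the adaptor gene TIRAP passed, with 447 and 614 counts, and TAB1 held 0. Of 12 factors of 3' splice site recognition, 2 passed, namely U2AF2 with 18 and 30 counts and PUF60 with 15 and 26, while U2AF1 held 0. The counts are of uniquely mapped reads, so this 0 does not show that RNA of U2AF1 was absent. Whether its reads could map uniquely was not tested. PAXIP1, CLTC, GNAL, ATG10, TIRAP, GEMIN4 and U2AF2 have an opposite-strand gene over their exons, and H2AFX and TEAD3 have none.

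**Figure D5:**
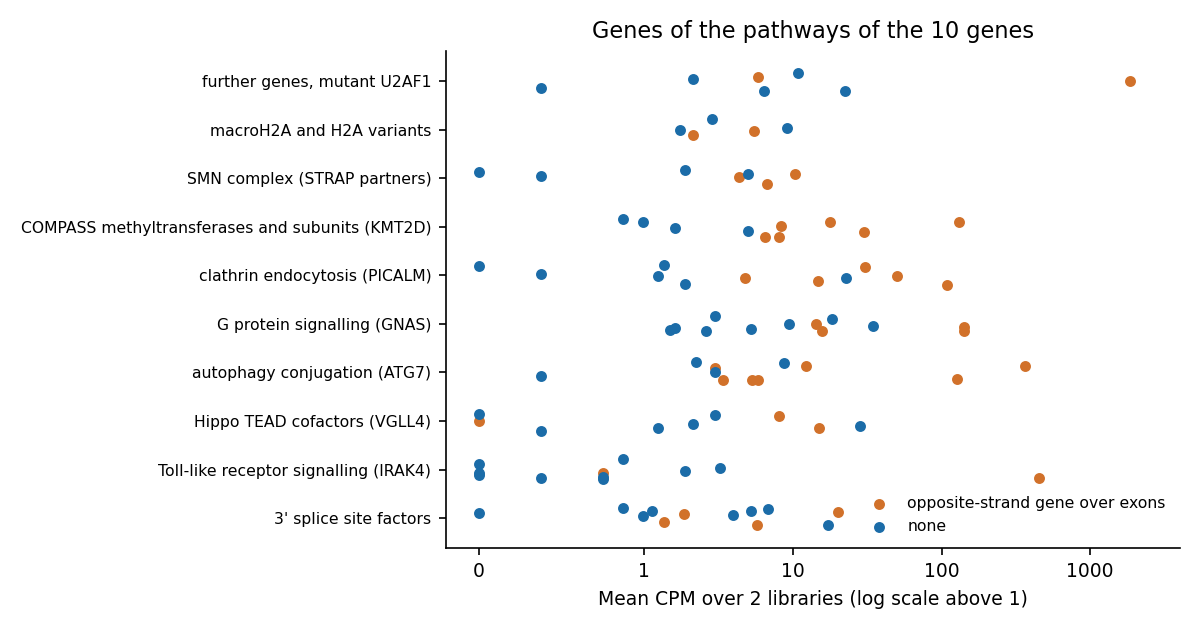
Mean CPM over the 2 libraries (horizontal axis, logarithmic above 1) of each gene of the 10 lists (rows), coloured orange where an opposite-strand gene lies over its exons and blue where none does. FANCA stands at 1863 CPM, TIRAP at 452 and ATG10 at 362 CPM, and most blue points lie below 10.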

How the data were processed

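The authors deposited 1 table of raw counts per gene, whole numbers, for 2 U2AF2 eCLIP libraries. The submitters' processing notes name cutadapt, STAR 2.7.0f and the build GRCh38.p10. The counting step, strand setting, annotation release and duplicate removal are not given in the sources used here, and duplicates would make counting intervals too narrow. Tallies of unassigned reads and 45 second copies of pseudoautosomal genes, with 0 counts, were left out. Gene models, overlaps and splice sites came from GENCODE 29 (GRCh38), and sequences from its transcripts. CPM used TMM factors from edgeR 4.0.16 (R 4.3.3) on genes reaching 10 counts in both replicates. With 1 group, the quasi-likelihood test could not be used. The replicate test was the two-sided exact conditional binomial test (scipy 1.17.1, Python 3.11.15), adjusted p below 0.05, and was tested on simulated data. The simulated counts carried counting error only, as the test assumes. They do not cover duplicates or variation between replicates. Intervals are 95%, exact, for counting error only. Alternatives were other scalings (DESeq2 1.42.0), count minimums, length scaling, transcript sets and single replicates. The members and lists were chosen with earlier results of these data known. Named genes are the 10 members, genes over their exons or span, the 3 genes nearest in level (prior count 2) to the 2 members with most counts, and the highest and lowest gene of each list. The markers GP1BA, TAL1 and PF4 and the list genes CTNNB1, CASP8, H2AFY2 and PUF60 were named after their values were seen. Of the marker genes listed for HEL, 1 is not reported here.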

Additional observations from a re-analysis of the deposited data

How the results depend on the processing

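Of 70 alternatives, 59 left the result within its spread, 11 moved it and 0 reversed it. Many of these outcomes were fixed in advance. With 2 replicates, leaving 1 out cannot move a gene's mean level beyond its SD. Levels, gene counts and percentages cannot be negative, so only the log2 ratios and the gap in shares could reverse. The median level of the 10 genes, 23.1 CPM, was 22.1 to 25.3 with 1 replicate left out and 1.25 over the 3 genes without an opposite-strand gene. With a minimum of 1 count, 9 of the 10 genes passed in place of 5 (5 with either replicate left out). The log2 ratio of C5orf66 to H2AFY, 6.27, was 7.69 per kb of merged exons, 3.97 per kb of span and 6.19 to 6.34 with 1 replicate left out. That of GNAS to GNAS-AS1, 6.38, was 4.52 per kb of exons, 5.22 per kb of span and 6.04 to 7.09 with 1 replicate left out, since GNAS-AS1 held 1 and 3 counts (ratios of 136 and 66). That of ATG7 to VGLL4, 2.26, was 1.85 per kb of span and 2.00 to 2.46 with 1 replicate left out. The gap between genes with and without an opposite-strand 3' splice site in the share passing the minimum, 22.5 percentage points, was 36.2 with sites of protein-coding transcripts and 22.2 to 22.3 with 1 replicate left out. The number of members called between the replicates stayed at 0 in each setting, while over all genes the calls went from 45 to 48 (raw totals), 49 (DESeq2 size factors), 71 (no filter) and 120 (at least 10 counts over both). Among protein-coding genes with at least 20 counts in gene and partners, an alternative chosen after seeing the data, partners held more in 63.1%. Base shares over splice sites were not computed, since fewer than 80% of sites could be read, and their alternative was not run. No paired analysis was possible because the samples form 1 group. Depth leaves the 5 genes with 8 or fewer counts per library unordered.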
